A study of Mus musculus with 6 samples.

Results

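The genes described here encode TRAF adaptors and inhibitor of apoptosis proteins (IAPs). They are *Traf1*, *Traf2*, *Traf3*, *Traf4*, *Traf5*, *Traf6*, *Traf7*, the cellular IAP genes *Birc2* and *Birc3*, and *Xiap*, which encodes another IAP. They were chosen by gene name from the deposited table of 54532 mouse genes, and all 10 passed the filter on low counts that left 15307 genes for testing. Their RNA levels were compared in MLE12 cells, a mouse lung epithelial line transformed with a viral oncogene and used as a model of alveolar type 2 cells, for which the labels give the strain as C57BL/6J. The 3 Ctrl_sh libraries came from cells given 1 control lentivirus carrying an empty construct at a multiplicity of infection of 50. The 3 SI_sh libraries came from cells given 2 lentiviruses together, an Idh3α-silencing one and an Slc25a1-silencing one, each at a multiplicity of 50. In both groups the medium was changed after 16 h and the cells were kept for a further 80 h. SI_sh cells thus received 2 viruses and Ctrl_sh cells 1, so the number of viruses and the silencing cannot be told apart. Nothing in the labels says that the 3 replicates of a group were separate cultures, so all p-values measure the spread between these libraries, which may be technical.

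TRAF proteins bind the intracellular tails of TNF receptor family members and act in the interleukin-1 and Toll-like receptor pathways, and several of them are ubiquitin ligases. When TNF binds its receptor, TRAF2 brings the cellular IAPs, encoded by *Birc2* (cIAP1) and *Birc3* (cIAP2), to the receptor-bound complex I. There they attach ubiquitin chains to RIPK1, which feeds NF-κB activation and holds back death by apoptosis or necroptosis. TRAF3, TRAF2 and the cellular IAPs also form the complex that degrades the kinase NIK and so keeps the non-canonical NF-κB pathway off. XIAP binds and blocks caspases. *Traf1* and *Birc3* are known as NF-κB target genes.

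The targeted genes were lower in every SI_sh library than in every Ctrl_sh library. *Idh3a*, which encodes the catalytic subunit of mitochondrial isocitrate dehydrogenase, stood at 79.8, 137 and 93.0 CPM (read counts scaled to a common library size) in Ctrl_sh and at 58.5, 57.9 and 55.5 CPM in SI_sh, and *Slc25a1*, the mitochondrial citrate carrier, at 103, 98.7 and 108 CPM against 68.9, 69.6 and 63.0 CPM. Total counts ran from 27273502 to 28535653 per library. Ctrl_sh replicate 2 stood apart: it had 16681 genes with a count and the other libraries 19902 to 23147, its mitochondrial share of counts was 6.49% beside 1.57 to 1.80% elsewhere, and its normalization factor was 0.711, with the others at 1.05 to 1.09. Results are therefore given with and without it. In edgeR with all libraries *Idh3a* had a log2 fold change (SI_sh over Ctrl_sh) of -0.85 (adjusted p = 0.254). *Slc25a1* had -0.62 (edgeR adjusted p = 0.104). Without Ctrl_sh replicate 2 the values were -0.60 (edgeR adjusted p = 0.0142) and -0.66 (edgeR adjusted p = 0.00649). Both targeted genes thus passed in edgeR without that library and neither with all libraries. A gene that edgeR did not call with all libraries therefore cannot be read as unchanged. Of the epithelial markers, *Krt19* (693 to 930 CPM), *Krt8* (232 to 300.4 CPM) and *Cdh1* (68.4 to 83.8 CPM) were high, *Epcam* was at 2.39 to 4.01 CPM, and *Krt18* and *Cldn7* were at or near 0. Of the alveolar type 2 markers, *Nkx2-1*, *Abca3* and *Sftpc* were present, while *Sftpd* had no count in any library and *Sftpa1*, *Slc34a2* and *Lamp3* were near 0. *Sftpb* and *Napsa* were at 0.453 to 2.49 CPM and *Etv5* at 23.1 to 39.5 CPM. The sum of these 10 markers was 547 to 559 CPM in Ctrl_sh and 480 to 512 CPM in SI_sh, and none of the 6 tested passed with edgeR and all libraries. DESeq2, which called 3.4% of all genes, called 1 of them higher (*Etv5*). Limma with quality weights, which called 15.0% of all genes, called 2 higher (*Etv5* and *Napsa*) and 2 lower (*Sftpc* and *Nkx2-1*). In edgeR without Ctrl_sh replicate 2 *Sftpc* fell by 0.65 (adjusted p = 0.0438) and *Etv5* rose by 0.57 (adjusted p = 0.0312) on the log2 scale. The part of this shift in the values below was not tested.

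*Traf1*, *Birc3*, *Traf3* and *Traf4* stood highest in SI_sh relative to Ctrl_sh, with log2 fold changes (SI_sh over Ctrl_sh) of 1.96, 0.71, 0.42 and 0.32 with all 6 libraries. The other 6 genes lay between -0.10 (*Traf5*) and 0.17 (*Traf7*). No gene of the 10 passed an adjusted p of 0.05 with edgeR in either direction, where 0.0653% of all genes tested did, and none passed without Ctrl_sh replicate 2, where 1.79% did. DESeq2 gave an adjusted p for 8 of the 10, not for *Traf1* and *Traf5*. It called 1 of the 8 higher, *Birc3*, with 3.4% of genes with an adjusted p called in all. Limma with library quality weights called 3 of the 10 higher, *Birc3*, *Traf3* and *Traf1*, with 15.0% called in all. At an unadjusted p under 0.05 with edgeR, 3 of the 10 were higher (*Birc3*, *Traf3* and *Traf4*) and 0 lower, beside 7.47% of all genes tested being higher. Without Ctrl_sh replicate 2 it was 4 of 10 (*Traf1* in addition) and 0 lower, beside 9.54% of all genes. The log2 fold change was above 0 in 7 of the 10, with a median of 0.17 against -0.01 over all genes tested. Without Ctrl_sh replicate 2 it was above 0 in 8 of the 10, with a median of 0.16 against -0.02. As the medians over all genes were below 0, fewer of all genes lay above 0 than below it. Of all genes tested, 58.6% (46.1% without Ctrl_sh replicate 2) had an absolute change at least as large as the median absolute change of the 10. In bulk RNA, a change in the share of cells in some state and a change in RNA per cell cannot be told apart.

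**Figure D1:**
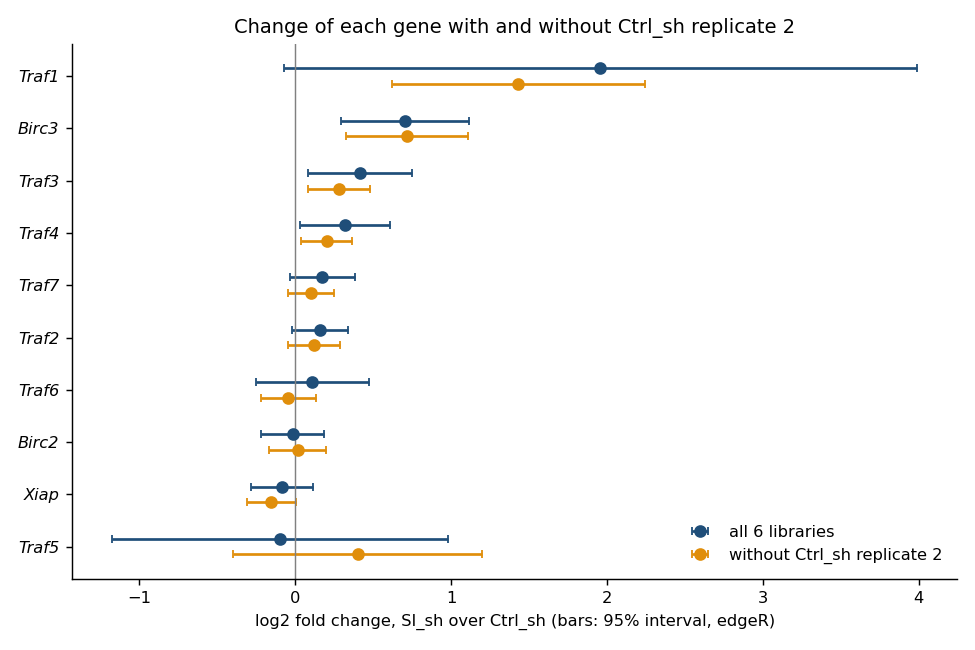
Log2 fold change (x axis, SI_sh over Ctrl_sh) of each of the 10 genes (y axis) from edgeR, with bars for the 95% interval, for all 6 libraries and for the 5 without Ctrl_sh replicate 2. The *Birc3* interval lies above 0 in both (0.29 to 1.12 and 0.32 to 1.11), the *Traf1* interval is the widest with all 6 libraries (-0.07 to 3.99), and *Traf5*, *Traf6* and *Birc2* change sign between them.

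Every SI_sh library lay above every Ctrl_sh library for 6 of the 10 genes (*Traf1*, *Traf2*, *Traf3*, *Traf4*, *Traf7* and *Birc3*), a separation that 14.7% of all genes tested showed in that direction. Ctrl_sh replicate 2 was the lowest of the 6 libraries in 6 of the 10 genes, the highest in 2 (*Traf5* and *Birc2*) and in between in 2 (*Birc3* and *Xiap*). Its place was not counted over all genes tested, so these places cannot be read as a trait of the 10 genes. With that library left out, 7 genes separated upward, beside 20.3% of all genes tested, and 1, *Xiap*, downward, beside 17.3%. Of the 7, *Traf5* was the addition, since leaving out a library cannot undo the separation of the 6 named above.

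**Figure D2:**
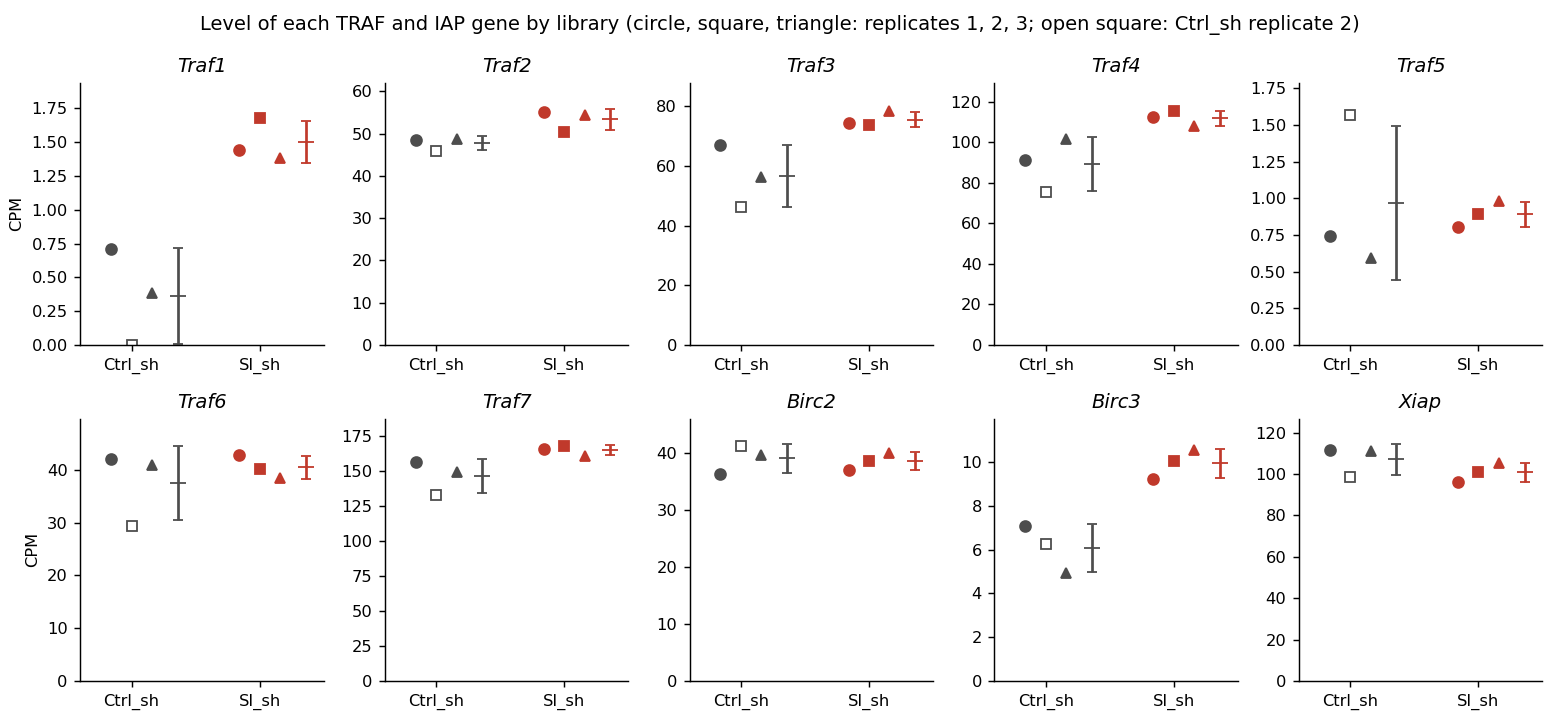
CPM (y axis, from 0, a scale of its own for each gene) of the 10 genes in the Ctrl_sh and SI_sh libraries. Circles, squares and triangles are replicates 1, 2 and 3, the open square is Ctrl_sh replicate 2, and the dash and bar are the mean and SD of 3 libraries. For *Birc3* the SI_sh libraries sit at 9.21 to 10.6 CPM, above all Ctrl_sh libraries (4.92 to 7.07 CPM), while for *Birc2* the groups overlap.

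The levels of the 10 genes spanned a wide range. Per kilobase of the length given in the table, and averaged over all 6 libraries, the level was 30.6 CPM per kb for *Traf4* and 26.5 for *Traf7*, followed by 11.0 for *Xiap*, 9.91 for *Traf2*, 8.98 for *Traf3*, 8.46 for *Birc2* and 4.94 for *Traf6*. *Birc3* was at 1.60 CPM per kb, and *Traf5* (0.204) and *Traf1* (0.106) were the lowest. The ranges of neighbours in this order did not overlap between *Traf7* and *Xiap*, *Birc2* and *Traf6*, *Traf6* and *Birc3*, and *Birc3* and *Traf5*. They overlapped for the other pairs of neighbours, although *Traf4* exceeded *Traf7* and *Traf5* exceeded *Traf1* in 6 of 6 libraries. Between *Xiap* and *Traf2*, *Traf2* and *Traf3*, and *Traf3* and *Birc2* the order held in 5, 5 and 4 of 6 libraries.

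The summed level of the TRAF genes was higher in every SI_sh library than in every Ctrl_sh library, and that of the IAP genes overlapped between the groups. Summed over the 7 TRAF genes, the level was 78.6, 64.9 and 79.0 CPM per kb in Ctrl_sh and 89.2, 89.1 and 86.8 in SI_sh (74.2 ± 8.05 against 88.4 ± 1.36, mean ± SD, n = 3, exact permutation p = 0.1, two-sided). An exact test of 3 against 3 libraries cannot give a p below 0.1. The sum over the 3 IAP genes was 21.0 ± 0.334 CPM per kb in Ctrl_sh and 21.0 ± 0.968 in SI_sh (exact permutation p = 1).

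Of the IAP genes, *Birc3*, which encodes the cIAP2 ubiquitin ligase, carried the difference with the smallest p among the 10. The gene lies on chromosome 9 at 7848699 to 7873186 (GRCm38, minus strand). It was at 7.07, 6.28 and 4.92 CPM in Ctrl_sh (219, 124 and 141 counts) and at 9.21, 10.1 and 10.6 CPM in SI_sh (274, 305 and 313 counts). All SI_sh libraries lay above all Ctrl_sh libraries, and Ctrl_sh replicate 2 was the middle one of its group. The ratio of the means was 1.63 with all Ctrl_sh libraries and 1.66 with replicates 1 and 3 alone. The log2 fold change was 0.71 ± 0.17 (SE, edgeR adjusted p = 0.258) and 0.72 ± 0.17 without Ctrl_sh replicate 2 (edgeR adjusted p = 0.0852). DESeq2 gave 0.70 (adjusted p = 0.0242) and 0.72 on the 5 libraries (adjusted p = 0.00826, with 7.55% of genes called in all), and limma with quality weights gave 0.89 (adjusted p = 0.00868). The *Birc3* value thus ran from 0.70 to 0.89 in these fits, and whether it passed depended on the tool.

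*Birc2*, which encodes the closely related ligase cIAP1, is the neighbour of *Birc3* on the same strand (7818227 to 7837064, 11634 bases away). It was at 36.2, 41.2 and 39.5 CPM in Ctrl_sh and at 36.9, 38.6 and 40.0 CPM in SI_sh. The groups overlapped, with Ctrl_sh libraries at both ends of the range, and the log2 fold change was -0.02 (95% interval -0.22 to 0.18, edgeR adjusted p = 0.934). The neighbours share some sequence: 65 of the 4579 windows of 50 bases in the annotated *Birc2* transcripts also occur in *Birc3*, and 7.56% of the *Birc3* windows occur in some other gene.

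*Xiap*, the caspase inhibitor on chromosome X (42059679 to 42109656, plus strand), was at 112, 98.6 and 111 CPM in Ctrl_sh and at 96.0, 101 and 105 CPM in SI_sh. Its 2 highest libraries were Ctrl_sh replicates 1 and 3, and replicate 2 fell among the SI_sh libraries. Its log2 fold change was -0.09 (95% interval -0.29 to 0.11, edgeR adjusted p = 0.598) and -0.15 without Ctrl_sh replicate 2 (95% interval -0.31 to 0.0037, edgeR adjusted p = 0.262).

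The 250 bases before the RefSeq start sites of *Birc3* and *Birc2* are shown because these neighbouring genes differed in their values. The *Birc3* window is chr9:7873171-7873420 and the first of the 2 *Birc2* windows chr9:7837058-7837307, both on the minus strand of GRCm38.p6 and written 5′ to 3′. Capitals mark a match to GGG, any 5 bases and then CC, a loose form of the NF-κB motif, read on either strand.
Birc3: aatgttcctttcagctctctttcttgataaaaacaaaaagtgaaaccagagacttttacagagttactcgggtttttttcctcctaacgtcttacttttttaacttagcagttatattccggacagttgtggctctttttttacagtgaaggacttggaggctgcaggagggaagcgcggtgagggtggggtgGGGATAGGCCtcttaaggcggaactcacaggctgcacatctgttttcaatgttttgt
Birc2: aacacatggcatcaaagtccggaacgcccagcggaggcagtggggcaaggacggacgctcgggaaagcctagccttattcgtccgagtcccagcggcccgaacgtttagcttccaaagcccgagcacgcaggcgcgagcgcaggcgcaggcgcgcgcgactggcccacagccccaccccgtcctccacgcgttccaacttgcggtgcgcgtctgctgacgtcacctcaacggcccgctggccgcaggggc
The *Birc3* window holds 1 such match, GGGATAGGCC, which begins 57 and ends 48 bases before the start site, and neither *Birc2* window holds one. These letters occurred in 8 of the 13 windows that RefSeq gives for the 10 genes (61.5%) and in 45.8% of all 32851 mouse promoter windows of this length. Beside *Birc3*, the windows with a match were those of *Traf2*, *Traf3*, *Traf4*, *Traf5*, *Traf6*, *Traf7* and *Xiap*. *Xiap* and *Traf6* were not higher in SI_sh without Ctrl_sh replicate 2, and *Traf1*, with the largest fold change, had no match. A match describes the sequence and is not a measured binding site.

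Within each library the ratio of *Birc3* to *Birc2*, as counts per kb, does not depend on how libraries were scaled. It was 0.179, 0.140 and 0.114 in Ctrl_sh and 0.228, 0.238 and 0.242 in SI_sh. All SI_sh ratios were higher than all Ctrl_sh ratios, with a difference of 0.73 in mean log2 ratio (exact permutation p = 0.1, two-sided). *Birc3* made up 6.69, 6.07 and 4.60% of the summed IAP level per kb in Ctrl_sh and 9.17, 9.52 and 9.59% in SI_sh (5.79 ± 1.07% against 9.43 ± 0.222%, exact permutation p = 0.1). The share of *Birc2* was 40.5 ± 3.05% against 40.0 ± 0.251% (exact permutation p = 0.7), and that of *Xiap* was 53.7 ± 2.93% against 50.6 ± 0.0683% (exact permutation p = 0.4). *Birc3* had the lowest level per kb of the 3 IAP genes in each of the 6 libraries.

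**Figure D3:**
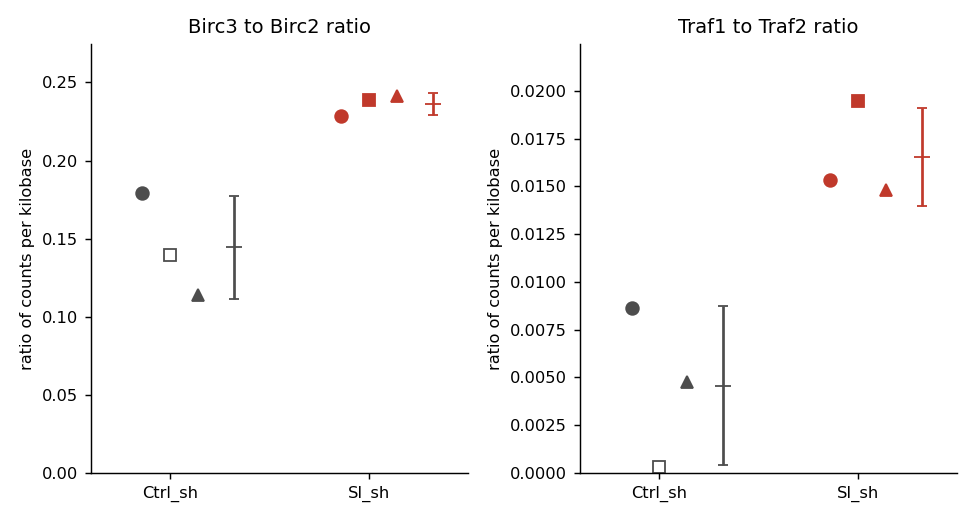
Ratio of counts per kilobase (y axis, linear, from 0) of *Birc3* to *Birc2* and of *Traf1* to *Traf2* in each Ctrl_sh and SI_sh library, with 0.5 added to every count. Symbols mark replicates as in the plot of levels, and the dash and bar are the mean and SD of 3 libraries. For both ratios all 3 SI_sh libraries lie above all 3 Ctrl_sh libraries.

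Of the TRAF genes that act with TRAF2 at TNF receptors, *Traf1* had the largest fold change and the lowest level per kb. TRAF1 has no RING ligase domain and pairs with TRAF2. *Traf1* (chromosome 2, 34941750 to 34961772, minus strand) had 22, 0 and 11 counts in Ctrl_sh and 43, 51 and 41 in SI_sh, which is 0.711, 0 and 0.383 CPM against 1.44, 1.68 and 1.38 CPM. The count of 0 in Ctrl_sh replicate 2 allows a level of up to 0.152 CPM (3 counts, counting error only). Every SI_sh library was above every Ctrl_sh library. The ratio of the means was 4.12, and 2.75 against Ctrl_sh replicates 1 and 3. With all libraries *Traf1* had a log2 fold change of 1.96 ± 0.84 (SE, edgeR adjusted p = 0.357), and 1.43 ± 0.36 without Ctrl_sh replicate 2 (95% interval 0.62 to 2.24, edgeR adjusted p = 0.0927). Over all the settings tried it ran from 1.43 to 2.82, the highest without Ctrl_sh replicate 1. Limma with quality weights gave 1.82 (adjusted p = 0.0222), while DESeq2 gave no adjusted p at this level.

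*Traf2*, the ligase that recruits the cellular IAPs, lies on the same chromosome (25517982 to 25546940, minus strand). It was at 48.6, 45.9 and 48.8 CPM in Ctrl_sh and at 55.1, 50.4 and 54.5 CPM in SI_sh. The groups did not overlap, but the log2 fold change was small, 0.16 ± 0.07 (SE, 95% interval -0.02 to 0.34, edgeR adjusted p = 0.365), and 0.12 without Ctrl_sh replicate 2 (edgeR adjusted p = 0.388). The ratio of *Traf1* to *Traf2* per kb was 0.00865, 0.000319 and 0.00475 in Ctrl_sh and 0.0153, 0.0195 and 0.0148 in SI_sh. The mean log2 ratio differed by 2.80 (exact permutation p = 0.1), and by 2.14 from the deposited FPKM with 0.01 added (exact permutation p = 0.1). This size rested on the count of 0 in Ctrl_sh replicate 2, whose ratio is set by the 0.5 added to each count, and the difference was 1.36 without that library (exact permutation p = 0.2, the smallest that 2 against 3 libraries can give). Without Ctrl_sh replicate 1 or 3, where the count of 0 stays, it was 3.74 and 3.31.

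*Traf5*, which encodes a RING adaptor close to TRAF2, lies on chromosome 1 (191997205 to 192092559, minus strand). It had 23, 31 and 17 counts in Ctrl_sh and 24, 27 and 29 in SI_sh (0.743, 1.57 and 0.593 CPM against 0.806, 0.890 and 0.978 CPM). Ctrl_sh replicate 2 was the highest library, and the other Ctrl_sh libraries were the lowest. In the edgeR fit the log2 fold change was -0.10 with all libraries (95% interval -1.17 to 0.98, edgeR adjusted p = 0.927) and 0.40 without Ctrl_sh replicate 2 (95% interval -0.40 to 1.20, edgeR adjusted p = 0.559), so no direction could be read for *Traf5*. It overlaps the pseudogene *Gstp-ps* on the same strand over 631 bases, for which 441 counts were recorded over the 6 libraries, and 4.57% of its 50-base windows occur in other genes.

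*Traf3*, which encodes the adaptor that brings NIK to the cellular IAPs for degradation, lies on chromosome 12 (111166370 to 111267153, plus strand). It was at 66.9, 46.3 and 56.4 CPM in Ctrl_sh and at 74.4, 73.8 and 78.3 CPM in SI_sh. The groups did not overlap, and Ctrl_sh replicate 2 was the lowest. For *Traf3* the log2 fold change was 0.42 ± 0.14 (SE, edgeR adjusted p = 0.339), and it was smaller without Ctrl_sh replicate 2, at 0.28 ± 0.09 (edgeR adjusted p = 0.146). Limma with quality weights gave 0.39 (adjusted p = 0.0136). None of the 50-base windows of *Traf3* occurs in another gene.

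The windows before the start sites of *Traf3* (chr12:111166120-111166369, plus strand) and *Traf1* (chr2:34961773-34962022, minus strand) are shown because these were, beside *Birc3*, the genes called by limma with quality weights. They are from RefSeq on GRCm38.p6, 5′ to 3′, and capitals mark the same letters as above.
Traf3: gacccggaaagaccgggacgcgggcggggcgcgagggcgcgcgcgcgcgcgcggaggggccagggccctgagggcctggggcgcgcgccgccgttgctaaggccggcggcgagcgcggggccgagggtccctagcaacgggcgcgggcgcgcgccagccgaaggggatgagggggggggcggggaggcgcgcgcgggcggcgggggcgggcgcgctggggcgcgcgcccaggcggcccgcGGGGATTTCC
Traf1: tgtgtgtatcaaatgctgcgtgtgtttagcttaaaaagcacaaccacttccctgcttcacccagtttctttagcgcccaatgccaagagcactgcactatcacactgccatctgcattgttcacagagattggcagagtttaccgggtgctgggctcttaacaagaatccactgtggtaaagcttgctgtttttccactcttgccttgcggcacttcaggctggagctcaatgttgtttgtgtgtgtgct
The *Traf3* window ends in GGGGATTTCC, its last base 1 base before the start site, which also matches the NF-κB consensus. This was 1 of 13 windows of the 10 genes with a consensus match (7.69%), beside 7.25% of all promoter windows. The *Traf1* window held no match to either motif, which says only that these letters are not in these 250 bases.

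*Traf4* (chromosome 11, 78158499 to 78165589, minus strand), which encodes a TRAF known from epithelial cells and their junctions, was at 91.4, 75.4 and 102 CPM in Ctrl_sh and at 113, 115 and 108 CPM in SI_sh. The groups did not overlap, and Ctrl_sh replicate 2 was again the lowest. For *Traf4* the log2 fold change was 0.32 ± 0.12 (SE, edgeR adjusted p = 0.347), and 0.20 ± 0.07 without that library (edgeR adjusted p = 0.177).

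*Traf7* (chromosome 17, 24508562 to 24527938, minus strand), the family member with WD40 repeats in place of the TRAF domain, was at 156, 133 and 150 CPM in Ctrl_sh and at 166, 168 and 161 CPM in SI_sh. These groups did not overlap either, with a log2 fold change of 0.17 ± 0.09 (SE, edgeR adjusted p = 0.375), and 0.10 without Ctrl_sh replicate 2 (edgeR adjusted p = 0.421). *Traf7* overlaps *Caskin1* on the opposite strand over 344 bases, and the counts listed for *Caskin1* summed to 771 over 6 libraries against 11755 for *Traf7* in Ctrl_sh alone.

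*Traf6* (chromosome 2, 101678429 to 101701669, plus strand) encodes the ligase that serves the interleukin-1 and Toll-like receptors. It was at 42.0, 29.4 and 40.9 CPM in Ctrl_sh and at 42.8, 40.1 and 38.4 CPM in SI_sh. Apart from Ctrl_sh replicate 2, which was the lowest, the libraries of both groups were mixed. The log2 fold change was 0.11 (95% interval -0.25 to 0.47, edgeR adjusted p = 0.721) with all libraries and -0.05 (95% interval -0.22 to 0.13, edgeR adjusted p = 0.788) without Ctrl_sh replicate 2.

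**Figure D4:**
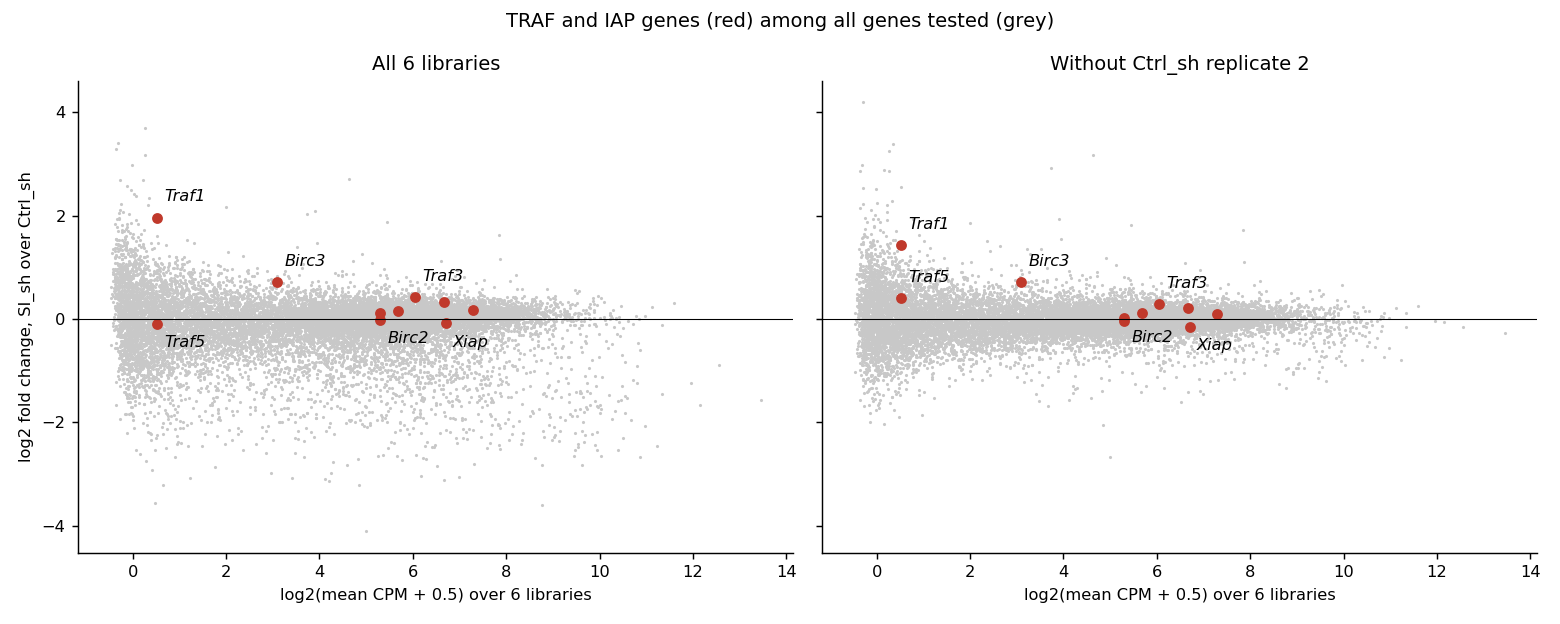
Log2 fold change (y axis, SI_sh over Ctrl_sh, edgeR) against log2(mean CPM + 0.5) over 6 libraries (x axis) for the 15307 genes tested with all 6 libraries (grey) and the 10 TRAF and IAP genes (red), with all libraries at the left and without Ctrl_sh replicate 2 at the right. *Traf1* and *Traf5* sit at the low end of expression, where the grey cloud is widest at the right, and the grey points far below 0 at the left are fewer at the right.

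The spread over all genes also moved with Ctrl_sh replicate 2, as the plot against mean level shows. Markers of other cell types were counted in the same libraries. *Dcn*, a fibroblast gene, was at 320, 1211 and 354 CPM in Ctrl_sh and at 297 to 318 CPM in SI_sh, and the sum of the 5 fibroblast markers ran from 346 to 1234 CPM in Ctrl_sh and from 317 to 345 CPM in SI_sh. Of these 5 markers 3 were tested and none passed with edgeR or DESeq2, while limma with quality weights called 1, *Pdgfra*, higher, and *Col1a2* and *Lum* were below 1 CPM in all libraries. Of 7 immune markers, the defining ones *Ptprc*, *Adgre1* and *Itgam* were at 0 in all libraries, and the sum was 1.74 to 2.51 CPM in Ctrl_sh and 2.50 to 2.92 CPM in SI_sh, most of it *Cd68*. Of 5 endothelial markers only *Tek* exceeded 1 CPM, and their sum was 36.8 to 45.8 CPM in Ctrl_sh and 31.9 to 33.3 CPM in SI_sh. The part of these markers, or of the high mitochondrial share, in the values of Ctrl_sh replicate 2 was not tested.

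The genes around the TRAFs and IAPs were counted in 6 lists. With edgeR, 1 of the 18 complex I partners rose with all 6 libraries (0.0653% of all genes called) and without Ctrl_sh replicate 2 (1.79% called). It was *Tnfaip3*, which encodes the ubiquitin-editing enzyme A20 that limits NF-κB signalling. It stood at 20.7, 17.7 and 17.4 CPM in Ctrl_sh and at 66.6, 70.6 and 66.6 CPM in SI_sh, with a log2 fold change of 1.87 ± 0.10 (SE, edgeR adjusted p = 0.0116), and 1.82 without Ctrl_sh replicate 2 (edgeR adjusted p = 0.00021). Leaving out Ctrl_sh replicate 3 or any SI_sh library ended the *Tnfaip3* call (edgeR adjusted p from 0.174 to 0.209) while its log2 fold change stayed between 1.81 and 1.89. The call also ended with the replicate block (1.87, edgeR adjusted p = 0.446) and with scaling by library size alone (2.03, edgeR adjusted p = 0.103). With all libraries DESeq2 called 2 complex I partners higher (3.4% of all genes called), *Tnfaip3* and *Tnip1*, and limma with quality weights called 6 higher and 1, *Tradd*, lower (15.0% of all genes called). The median log2 fold change of the list was 0.15 with all libraries and 0.07 without Ctrl_sh replicate 2.

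No other list held a call with edgeR and all 6 libraries. DESeq2 on these libraries, which called 3.4% of all genes, called 1 receptor (*Tnfrsf1b*), 1 of the partners and kinases (*Ikbke*) and 3 NF-κB subunits higher. Limma with quality weights, which called 15.0% of all genes, called 2, 3 and 4 higher. Of the 13 TRAF-binding receptors tested, *Tnfrsf1b*, the TNF receptor 2 that signals through TRAF2 and the cellular IAPs, rose without Ctrl_sh replicate 2 (log2 fold change 0.41, edgeR adjusted p = 0.0403) and was at 0.47 with all libraries (edgeR adjusted p = 0.180). It stood at 164, 138 and 144 CPM in Ctrl_sh and at 207, 209 and 202 CPM in SI_sh. Of the 16 TRAF partners and kinases tested, *Ikbke*, an IKK-related kinase, rose without Ctrl_sh replicate 2 (log2 fold change 0.61, edgeR adjusted p = 0.0336), against 0.65 with all libraries (edgeR adjusted p = 0.174). The receptor list had a median of 0.19 with all libraries and 0.33 without that one, and the list of partners and kinases 0.07 and 0.00.

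All 5 NF-κB subunit genes had log2 fold changes above 0. Their median was 0.36 with all libraries and 0.35 without Ctrl_sh replicate 2, against -0.01 and -0.02 over all genes tested. In the latter edgeR fit 2 of them rose, where 1.79% of all genes were called. *Nfkb2*, whose product is processed in the non-canonical pathway that TRAF3 and the cellular IAPs restrain, was at 217, 188 and 207 CPM in Ctrl_sh and at 350.3, 334 and 329 CPM in SI_sh. Its log2 fold change was 0.73 with all libraries (edgeR adjusted p = 0.104) and 0.66 without Ctrl_sh replicate 2 (edgeR adjusted p = 0.00582). *Relb*, its usual partner, was at 45.8, 39.9 and 50.4 CPM against 78.3, 78.4 and 69.6 CPM, with 0.73 (edgeR adjusted p = 0.144) and 0.64 (edgeR adjusted p = 0.0142).

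The 14 genes of the interleukin-1 and Toll-like receptor route to TRAF6 held no call in either edgeR fit, with medians of 0.15 and 0.09. The smallest p among them with all libraries was that of *Myd88*, the adaptor of these receptors, with a log2 fold change of 0.36 (edgeR adjusted p = 0.357). Of the other BIR proteins, IAP antagonists and caspases, 13 were tested and none passed with edgeR, with medians of -0.06 and -0.01.

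**Figure D5:**
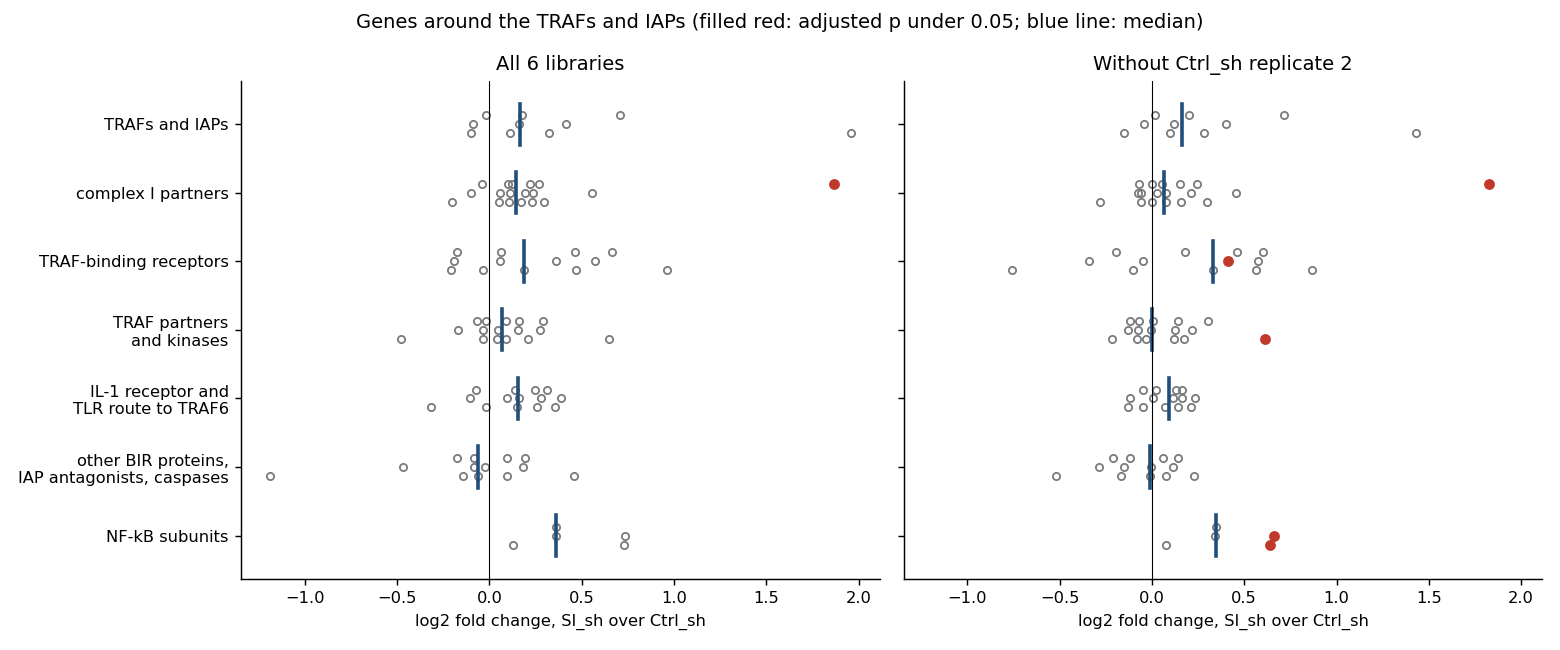
Log2 fold change (x axis, SI_sh over Ctrl_sh, edgeR) of each gene in the 6 lists and of the 10 TRAF and IAP genes (y axis), with all 6 libraries at the left and without Ctrl_sh replicate 2 at the right. Filled red points have an adjusted p under 0.05 over all genes tested and blue lines are medians. *Tnfaip3* is the single filled point at the left, and 5 points are filled at the right.

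The genes whose pattern over the 6 libraries was closest to that of *Birc3* were *Wnt5b*, *4930471M09Rik* and *Bysl*, with a root mean square distance of 0.0870, 0.0921 and 0.0948 in log2(CPM + 0.5) after centring, among 15307 genes compared. *Wnt5b*, a secreted Wnt ligand, was at 0.174 to 0.549 CPM in Ctrl_sh and at 0.890 to 1.11 CPM in SI_sh, and *Bysl*, a ribosome assembly factor, at 23.0 to 28.8 CPM against 38.2 to 39.4 CPM. At the level of *Wnt5b* the added 0.5 shrinks differences in this measure: its log2 fold change was 1.37 with all libraries (edgeR adjusted p = 0.339), against 0.71 for *Birc3*. *Bysl* had a log2 fold change of 0.57 with all libraries (edgeR adjusted p = 0.178) and without Ctrl_sh replicate 2 (edgeR adjusted p = 0.0387). These genes were found by likeness to *Birc3*, so their separation between the groups is a description.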

How the data were processed

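RNA of 6 MLE12 cell libraries was sequenced as paired ends. Per the labels and the submitters' processing notes, the authors aligned reads with HISAT2 2.0.5 (mm10), and the notes also name StringTie 1.3.3b and featureCounts 1.5.0-p3; whether counting used strand is not given in the sources used here. The deposited table holds raw read counts per gene and FPKM made by the authors, with gene length in bases. The counts were tested with edgeR 4.0.16 (filterByExpr, TMM, quasi-likelihood F-test) and p-values were adjusted by the Benjamini-Hochberg method over all genes tested. CPM used TMM-scaled library sizes. Alternatives were DESeq2 1.42.0, limma 3.58.1 (voom with quality weights, and on log2 FPKM), other scalings and filters, the replicate block, and each library left out. Single values were compared by two-sided exact permutation. The edgeR, DESeq2 and limma steps were tested on simulated data.

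The 10 genes and the lists were chosen with earlier results of these data known. Named genes were all 10, the called genes of each list (at most 4) or else the one of smallest p, the targeted genes, and the 3 nearest to the member of smallest p; 1 gene that this rule named is not reported here. Cell type markers given with values, *Tnip1* and *Tradd* were chosen after their values were seen. Transcript windows and coordinates came from GENCODE M21, in which all 10 had identical start and end, and promoters from RefSeq (GRCm38.p6).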

Additional observations from a re-analysis of the deposited data

How the results depend on the processing

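With all 6 libraries edgeR called 9 genes higher and 1 lower of 15307 (2162 at an unadjusted p under 0.05). DESeq2 called 258 higher and 181 lower, limma with quality weights 1327 and 971, and DESeq2 on 5 libraries 539 and 371. Library size alone gave 1 and 0, no count filter gave 12 and 3, and limma on log2(FPKM + 1) and log2(FPKM + 0.1) gave 8 and 3 each. Leaving out 1 library gave 0 to 175 higher and 0 to 106 lower, with both maxima without Ctrl_sh replicate 2. Of the TRAF and IAP genes, 1 was called higher by DESeq2, 3 by limma with quality weights and 1 by DESeq2 on 5 libraries, and 0 by edgeR under each setting. Both DESeq2 fits gave an adjusted p for 8 of the 10. In the lists, calls higher numbered 1 with all libraries, 7 with DESeq2, 15 (and 2 lower) with limma with quality weights, 9 with DESeq2 on 5 libraries, 0 with library size alone and 0 to 5 with 1 library left out.

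Same-numbered libraries did not deviate together (r = -0.21, -0.16 and 0.02). With the replicate block, edgeR called 0 genes higher and 0 lower (1133 at an unadjusted p under 0.05), and 0 in the lists. *Birc3* then had 0.72 (adjusted p = 0.576).

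*Traf5* reversed to 0.17 with library size alone, 0.47 with limma with quality weights, 0.40 without Ctrl_sh replicate 2 and 0.41 with DESeq2 on 5 libraries (-0.37 to 0.40 with 1 library left out). *Traf6* reversed to -0.045 and -0.041 on 5 libraries with edgeR and DESeq2 (-0.045 to 0.20 with 1 left out), and *Birc2* to 0.016 and 0.021 on these, to 0.016 without SI_sh replicate 1 and to 0.17 with library size alone (-0.063 to 0.016 with 1 left out). *Xiap* reversed to 0.073 with library size alone, a scaling that moved the median of all genes to 0.16. The causes were not tested. *Birc3* ran from 0.43 to 0.89 over all settings, with adjusted p from 0.00826 to 0.675. Of 338 alternative values of named genes with an adjusted p, 286 kept direction and side of the threshold, and 6 more had no adjusted p. *Traf1* and *Traf5* did not pass the FPKM filter (0.5 in 3 libraries), and *Traf1* not that of 10 counts in every library. Both had at most 51 counts in each library, which limits their precision.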
